A study of Rattus norvegicus with 2 samples.

Results

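The genes described here encode the subunits of the oxidative phosphorylation system, and their signals were compared between rat livers of a high-fat and a low-fat diet. Members were taken by gene symbol and not by measured values, although the list was chosen with earlier results of these data known. They are all probe sets whose only symbol in the platform annotation starts with Nduf followed by a, b, c, s or v, is Sdha, Sdhb, Sdhc or Sdhd, or starts with Uqcr, Cox4 to Cox8 or Atp5. A probe set is the group of short oligonucleotides that reports 1 transcript on the array. The rule took 89 probe sets with 84 symbols, out of 10411 genes with a single symbol on the array. Of the 84, 5 are Ndufaf genes, which code for assembly factors of complex I and not for subunits, and Cox6c-ps1 is a pseudogene by its symbol. These 6 are given apart, which leaves 78 subunit genes. By symbol, 36 of them belong to complex I, 4 to complex II, 7 to complex III, 15 to complex IV and 16 to complex V.

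Liver RNA of SD rats, which the labels give as 4 weeks old with 9 weeks of feeding, was hybridised to 1 array per diet. Both diets were based on AIN93G, a purified rodent diet, and no source used here gives the fat content, the sex or the number of animals. With 1 array per diet there is no replicate and no test of diet, and every difference describes these 2 arrays only. The number of arrays limits the precision of every value.

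Oxidative phosphorylation takes place in the inner mitochondrial membrane. Complexes I and II pass electrons from NADH and succinate to ubiquinone, complex III passes them on to cytochrome c, and complex IV hands them to oxygen. Complexes I, III and IV pump protons, and complex V, the ATP synthase, uses the returning protons to make ATP. Most subunits are encoded in the nucleus and a few in mitochondrial DNA, and the liver relies on the system for the ATP that gluconeogenesis and urea synthesis consume. Nuclear subunit genes are textbook targets of the transcription factors NRF1 and GABPA, often with the coactivator PGC-1alpha.

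Signals are intensities in arbitrary units, and signals of different probe sets are not comparable as levels of their genes. A gene is called measured where the mean log2 signal of its brightest probe set reached the mean of both array medians, which are called floors and were 15.7 (low-fat) and 14.0 (high-fat). Each ratio is the log2 of the high-fat over the low-fat signal after centring on the median of all measured probe sets. That median was -0.12 before centring, so a gene at 0 had a lower deposited signal on the high-fat array. Of 6012 measured genes, 3008 (50%) had a ratio below 0 and 3004 (50%) above 0. The robust SD of the ratio was 0.49 in the dimmest and 0.17 in the brightest of 10 equal bins of measured probe sets. The 3' over 5' signals of the control transcripts, a sign of RNA integrity, stood at 2.69 (low-fat) and 2.85 (high-fat) for beta-actin and at 1.58 and 1.67 for Gapdh.

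After centring, subunit genes differed little between the 2 arrays. Of 78, 71 were measured, and their ratios had a median of -0.0475, against -0.0002 over all genes measured. In whole liver, fewer cells of a type and less RNA per cell cannot be told apart. Within 0.2 of 0 lay 61 of the 71 (85.9%), against 51.6% of all genes measured. Subunit genes are bright on these arrays, and the spread narrows with signal. In the 2 brightest bins, 60 of 66 subunit genes (90.9%) and 67.0% of all 1261 genes lay within 0.2 of 0. The robust SD was 0.11 over subunit genes and 0.29 over all genes measured. Past 1.5-fold in the lower direction were 2 subunit genes, Ndufb1 and Ndufv2, against 5.44% of all genes. Only Ndufs4 was at least 1.5-fold higher, against 4.22% of all genes. Among the genes of the 2 brightest bins, 2 of 66 subunit genes (3.03%) and 27 of all 1261 (2.14%) were that much lower, and 0 of 66 and 31 of 1261 (2.46%) that much higher. None reached 2-fold in either direction, which 0.865% of all genes did downward and 0.848% upward.

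The sign of these small ratios leaned to the low side, by an amount that depended on the scaling. Below 0 were 43 of 71 subunit genes (60.6%) and above 0 were 28. Without centring 60 of 71 were lower (84.5%, against 66.6% of all genes). With ratios corrected for signal by loess, 53 were lower and 18 higher (74.6% lower, against 50.2%). With quantile normalization 53 were lower, 16 higher and 2 at 0, against 49.8% of all genes lower. Centred on hybridization controls, 56 of 71 were lower (78.9%, against 58.2%). The median ratio of all probe sets in the brightest bin was 0.049. In the 2 brightest bins 40 of 66 subunit genes (60.6%) and 542 of all 1261 genes (43.0%) were lower after centring.

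**Figure D1:**
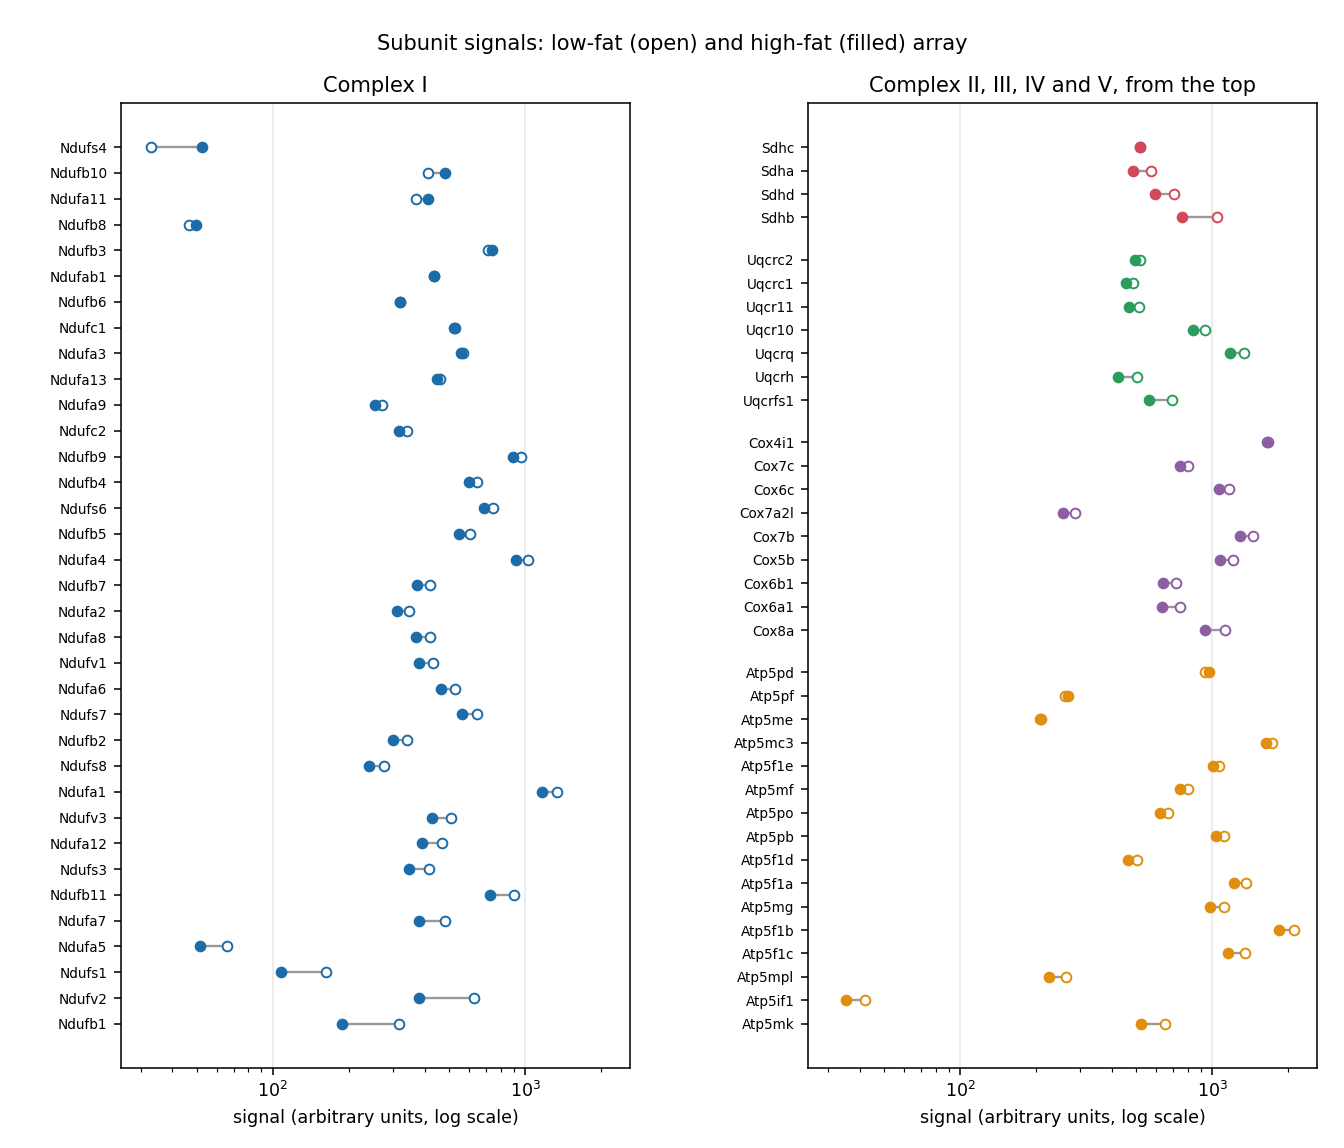
Signal of each measured subunit gene on the low-fat array (open circles) and the high-fat array (filled circles), in arbitrary units on a log axis, from the highest to the lowest ratio within each complex. Ndufs4 at the top of complex I is the only gene at least 1.5-fold higher, and Ndufb1 and Ndufv2 at the bottom are the only genes at least 1.5-fold lower after centring. Most pairs lie close together, with the high-fat circle slightly to the left. The deposited high-fat signal was the lower one for 66.6% of all genes measured.

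Complex I, the NADH dehydrogenase, held all 3 of the genes past 1.5-fold and the widest range of ratios, from -0.64 to 0.79. Of its 36 genes, 35 were measured, with a median of -0.0453. Of these, 21 were lower (60.0%, against 50% of all genes measured) and 14 higher. Low-fat signals ran from 32.8 to 1340.8 and high-fat signals from 49.6 to 1163.8. Ndufa4l2 was below both floors, at 1.4 and 3.4. Ndufa4 is in this count by its symbol, although its product is now regarded as a part of complex IV, and it was at -0.039.

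The catalytic core of complex I was lower in every measured gene. These subunits carry the flavin and the iron-sulfur clusters or form the ubiquinone site, and 6 had a probe set of a single symbol. All 6 had ratios below 0, against 50% of all genes measured. They stayed below 0 without centring and with hybridization control centring, which lower every ratio and so could not change this sign. The same 6 were also lower with quantile normalization and after loess, which rescale the same 2 arrays. Their median was -0.11, while 15 of the 29 other measured complex I genes were lower and 14 higher, with a median of -0.012. No test compares these groups, since the genes share 2 arrays.

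Ndufv2, an iron-sulfur subunit of the NADH-oxidising tip, went from a low-fat signal of 625.8 to a high-fat signal of 379.4. Its ratio of -0.61, a 1.52-fold lower value, was below the central 95% of probe sets in its signal bin, whose lower limit was -0.37. Ndufs1, the largest iron-sulfur subunit, went from 162.1 to 107.7, a ratio of -0.47, inside the corresponding limit of -0.58. The other core genes were closer to 0. Ndufs3, a subunit of the arm that leads to ubiquinone, went from 415.5 to 345.6 (-0.15). Ndufs8, an iron-sulfur subunit, went from 274.8 to 240.0 (-0.079), and Ndufs7, which carries the last cluster before ubiquinone, from 642.1 to 563.5 (-0.072). Ndufv1, which binds NADH and the flavin, went from 431.7 to 380.2 (-0.067). Within the core, the low ratios of Ndufv2 and Ndufs1 stood apart from the other 4, which lay between -0.15 and -0.067.

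The accessory subunits of complex I held the extremes on both sides. Ndufb1, a small membrane-arm subunit, went from 315.7 to 187.2. Its ratio of -0.64, 1.56-fold lower, was the lowest of all subunit genes and below the limit of -0.58 in its bin. Ndufs4, an accessory subunit needed for a stable and active NADH-oxidising tip, was the highest, from 32.8 to 52.4. That is 1.73-fold higher, or 0.79, above the upper limit of 0.59 in its bin. Its signal was low, and with 50 added to every signal the ratio was 0.37. Outside the central 95% of their bins were thus 3 of 71 subunit genes (5.17% of all genes), 2 below (2.54%) and 1 above (2.63%).

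The next highest were membrane-arm subunits. Ndufb10 went from 411.5 to 481.8 (0.34) and Ndufa11 from 369.0 to 410.0 (0.27). Ndufb8 and Ndufb3 were at 0.21 and 0.18. On the low side Ndufa5 went from 66.0 to 51.3 (-0.25), Ndufa7 from 480.3 to 380.2 (-0.22) and Ndufb11 from 901.1 to 727.6 (-0.19). With Ndufb1, the membrane-arm subunit at -0.64, genes of the membrane arm lay on both sides of 0. Ndufv3, a small subunit at the tip, had 2 probe sets with the same sign. The brighter went from 505.8 to 426.6 (-0.13) and the dimmer from 36.9 to 23.7 (-0.52).

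**Figure D2:**
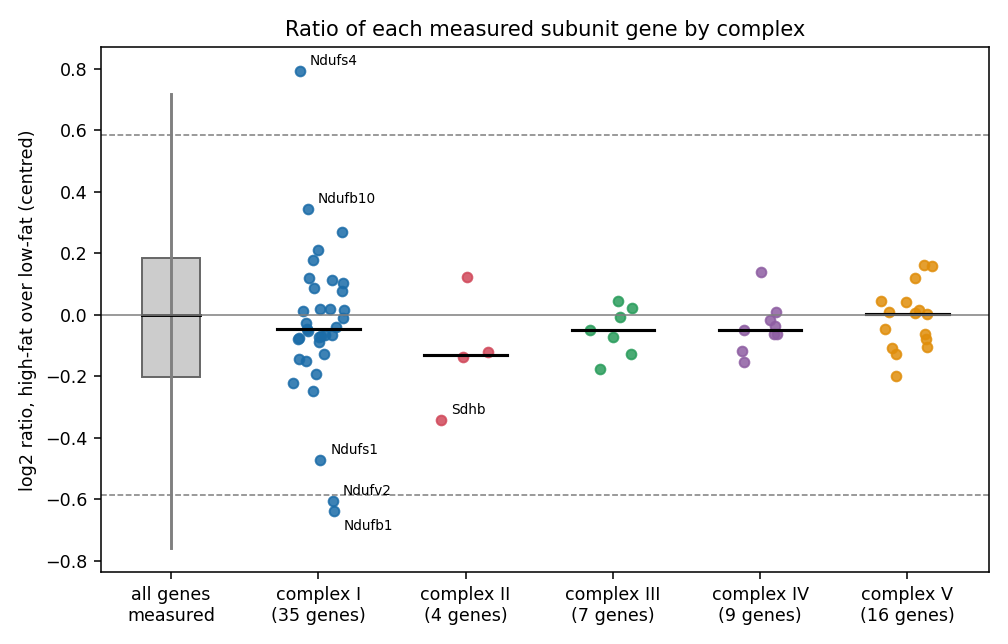
Centred log2 ratio, high-fat against low-fat, for every measured subunit gene (points) by complex, with the median of each complex as a bar. The grey box spans the middle 50% of all genes measured and its line the middle 95%, and dashed lines mark 1.5-fold. Complexes II to V have no gene past 1.5-fold, and complex V has a median of 0.0037.

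Promoters are shown for the genes at both extremes, Ndufb1 and Ndufs4, and for 3 other genes that hold the letters of the NRF1 motif. Each is the 250 bases upstream of the annotated start in RefSeq's table for GRCr8, written 5′ to 3′ on the gene's strand, with matches to the NRF1 motif in capitals.
Ndufb1 (chr6:126888865-126889114, minus strand): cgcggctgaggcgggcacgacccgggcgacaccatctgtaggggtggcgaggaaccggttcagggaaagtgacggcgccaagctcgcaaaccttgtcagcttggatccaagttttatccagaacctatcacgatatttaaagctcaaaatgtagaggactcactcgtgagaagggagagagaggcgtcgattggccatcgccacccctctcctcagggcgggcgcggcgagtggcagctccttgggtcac
Ndufs4 (chr2:47794915-47795164, minus strand): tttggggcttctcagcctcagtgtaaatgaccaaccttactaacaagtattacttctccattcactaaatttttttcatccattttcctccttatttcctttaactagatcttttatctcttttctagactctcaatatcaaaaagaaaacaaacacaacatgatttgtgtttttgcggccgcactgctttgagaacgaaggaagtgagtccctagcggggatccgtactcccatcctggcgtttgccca
Ndufa11 (chr9:1637364-1637613, plus strand): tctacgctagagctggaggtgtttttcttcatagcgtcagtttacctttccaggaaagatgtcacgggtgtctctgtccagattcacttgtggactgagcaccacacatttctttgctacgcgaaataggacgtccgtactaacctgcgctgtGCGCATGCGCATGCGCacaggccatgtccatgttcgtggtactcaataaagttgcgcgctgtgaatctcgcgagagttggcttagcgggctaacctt
Sdha (chr1:30764303-30764552, plus strand): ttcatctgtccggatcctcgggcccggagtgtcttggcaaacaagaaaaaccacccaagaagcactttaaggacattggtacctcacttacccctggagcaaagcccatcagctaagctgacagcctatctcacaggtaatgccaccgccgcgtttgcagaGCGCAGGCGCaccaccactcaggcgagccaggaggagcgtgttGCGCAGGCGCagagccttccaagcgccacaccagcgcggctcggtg
Ndufa5 (chr4:53971236-53971485, minus strand): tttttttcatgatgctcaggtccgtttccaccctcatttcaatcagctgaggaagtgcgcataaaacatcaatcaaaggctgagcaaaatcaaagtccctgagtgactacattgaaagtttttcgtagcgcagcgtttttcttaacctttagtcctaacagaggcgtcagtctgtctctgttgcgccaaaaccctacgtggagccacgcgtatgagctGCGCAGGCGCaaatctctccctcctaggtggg

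The windows of Ndufb1 and Ndufs4 held none of the 4 motifs searched, while Ndufa11 held 2 overlapping NRF1 matches, Sdha 2 and Ndufa5 1. Of the 78 subunit genes, 71 had a promoter in the table. Searched on both strands, the NRF1 motif was in 10 of these 71 (14.1%). It was in 3.75% of all 33469 promoters of the same length and in 11.0% of 5119 promoters of measured genes. The GABPA motif CCGGAAG was in 19 (26.8%), against 7.27% of all promoters and 17.5% of those of measured genes. The YY1 motif AAGATGG was in 4 (5.63%), against 4.62% of all promoters and 4.38% of those of measured genes. The ESRRA motif TCAAGGTCA was in 1 (1.41%), against 0.39% and 0.14% in the same order. Median GC content was 55.6% in the subunit promoters, 60.4% in those of measured genes and 51.2% in all. These are matches of letters and not sites.

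Ratios of genes with and without a match overlapped. The 10 measured genes with an NRF1 match had a median ratio of -0.06 with 6 lower and a range of -0.25 to 0.27, and the 55 without had -0.0482 with 33 lower. The 19 with a GABPA match had a median of -0.068 with 15 lower, and the 46 without had -0.019 with 24 lower, against 50% of all genes measured. The difference was not tested.

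Complex II, the succinate dehydrogenase that also belongs to the citric acid cycle, had a median of -0.13. Under each scaling 3 genes were lower and 1 higher, while 49.8% to 66.6% of all genes were lower. Sdhb, the iron-sulfur subunit, went from 1046.3 to 760.7, a ratio of -0.34, the lowest in any complex other than I. Sdha, the flavoprotein that oxidises succinate, went from 571.2 to 484.4 (-0.12). The membrane anchors differed in sign. Sdhd went from 706.3 to 592.2 (-0.14) and on a second probe set from 352.8 to 301.4 (-0.11), so both probe sets gave the same small difference. Sdhc had 515.2 and 517.9, which is 0.12 after centring and 0.0075 without it.

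Complex III, the cytochrome bc1 complex, had all 7 genes measured and all within 0.2 of 0. Of these 5 were lower (71.4%, against 50% of all genes measured) and 2 higher, with a median of -0.0484. Low-fat signals ran from 484.5 to 1334.9 and high-fat signals from 423.6 to 1171.4. Each of the 7 had the lower deposited signal on the high-fat array, as did 66.6% of all genes measured. Uqcrfs1, the Rieske iron-sulfur protein, was the lowest, from 689.6 to 562.4 (-0.18). Uqcrh, the hinge protein that helps cytochrome c bind, went from 502.1 to 423.6 (-0.13), and Uqcrq, a small subunit, from 1334.9 to 1171.4 (-0.072). The large core proteins were closer to 0. Uqcrc1 went from 484.5 to 454.2 (0.0235) and Uqcrc2 from 517.1 to 491.6 (0.0437), and Uqcr11 from 511.3 to 468.9 (-0.0082). The signs of Uqcrc1 and Uqcrc2 changed with the scaling, and that of Uqcr11 with the floor for measured genes.

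Complex IV, the cytochrome c oxidase, had 9 of its 15 genes measured, with a median of -0.0482 and all within 0.2 of 0. Of the 9, 7 were lower (77.8%) and 2 higher, against 50% of all genes measured lower and 43.0% in the 2 brightest bins. Cox4i1, the ubiquitous form of subunit IV, was the highest, with 1640.7 and 1667.7. Its ratio was 0.14 after centring, 0.06 after loess and 0.0 with quantile normalization. Cox8a was the lowest, from 1123.9 to 930.8 (-0.16), followed by Cox6a1, the liver-type form of subunit VIa, from 741.7 to 630.7 (-0.12). Cox6b1 went from 719.0 to 634.7 (-0.063), and Cox6c from 1159.5 to 1057.3 (-0.016). Cox7c went from 803.5 to 746.3 (0.010, with a sign that changed with the scaling). Cox7a2l, which has a role in joining complexes III and IV, went from 284.3 to 255.5 (-0.037).

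The isoforms of complex IV that other tissues use were below the floor on both arrays. Cox6a2, Cox7a1 and Cox8b, the heart and skeletal muscle forms, had signals of 0.7 and 1.1, 1.5 and 1.3, and 0.9 and 1.0 in the order low-fat, high-fat. Cox4i2, known from lung, had 6.8 and 7.5, and Cox6b2, known from testis, 0.2 and 2.2. No fold is given where both arrays are below the floor. Of 6 striated muscle markers none was measured, with summed signals of 23.4 and 26.1. The sixth unmeasured gene was Cox5a, a subunit with no tissue variant, at 10.3 and 15. Its only probe set was below the low-fat floor and just above the high-fat floor.

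Complex V, the ATP synthase, had all 16 genes measured and was the only complex with more genes higher (9) than lower (7). Its median was 0.0037, its range -0.20 to 0.16, and all 16 lay within 0.2 of 0. That split rested on the scaling. Without centring, with hybridization control centring and after loess 13 were lower and 3 higher. With quantile normalization 12 were lower, 3 higher and 1 at 0. Of all genes measured, 66.6%, 58.2%, 50.2% and 49.8% were lower in the same order, and 50% after centring.

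In the F1 part, where ATP is made, the larger subunits were slightly lower. Atp5f1b, the catalytic beta subunit, went from 2098.5 to 1833.6 (-0.078), and Atp5f1a, the alpha subunit, from 1361.5 to 1215.0 (-0.0475). Atp5f1c, the rotating gamma shaft, went from 1347.6 to 1156.5 (-0.10). The small stalk subunits Atp5f1d and Atp5f1e were at 0.0012 and 0.041, with 501.8 and 463.2, and 1057.5 and 1003.3, and their signs changed with the scaling. All 5 F1 genes had lower deposited signals on the high-fat array, as did 66.6% of all genes measured. After centring 3 of the 5 were lower and 2 higher.

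The peripheral stalk, which holds F1 still against the rotor, had 4 of 4 genes above 0 after centring, against 50% of all genes measured. Under each of the other 4 scalings 2 of 4 were above 0. Atp5pd went from 938.6 to 969.3 (0.16) and Atp5pf from 259.9 to 267.6 (0.16), and both were higher under each scaling. Atp5pb and Atp5po were at 0.0062 and 0.0091. In the membrane part, Atp5mc3, a c-ring gene, went from 1719.4 to 1635.3 (0.0443, and below 0 under each of the other 4 scalings).

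Of the other membrane genes, Atp5mk was the lowest in complex V, from 650.4 to 522.7 (-0.20), and Atp5mpl went from 263.9 to 226.0 (-0.11). Atp5me had 208.2 and 208.4 (0.12), and its second probe set, at 3.0 and 1.0, was below both floors. Atp5if1, the inhibitor that stops the enzyme from running backwards, went from 41.9 to 35.4 (-0.13). Its 2 other probe sets were below both floors, at 8.7 and 8.4 and at 3.2 and 3.8.

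**Figure D3:**
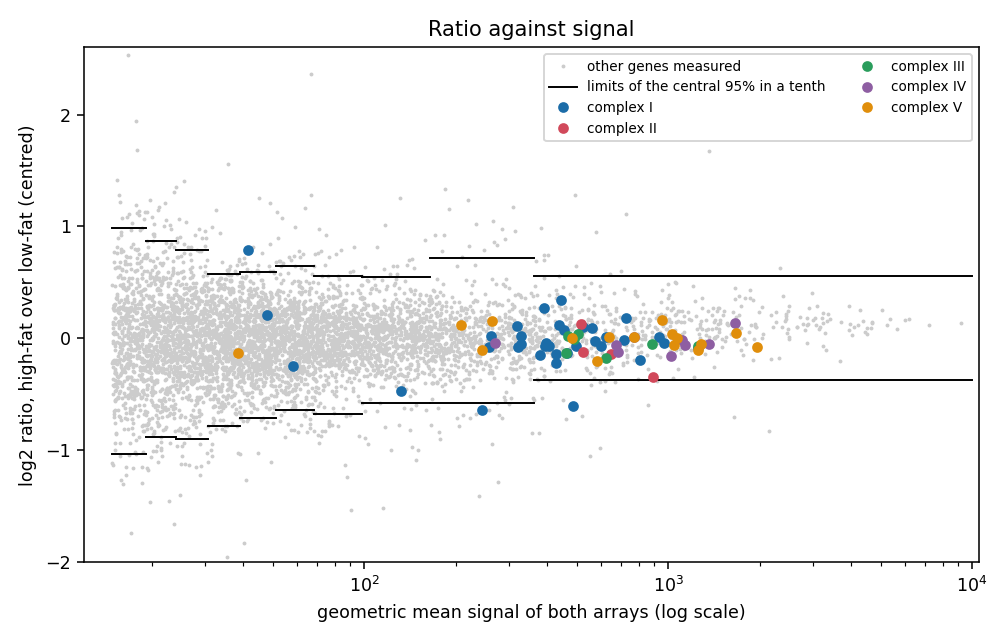
Centred log2 ratio against the geometric mean signal of both arrays (log axis) for measured subunit genes, coloured by complex, and all other measured genes in grey. Black steps are the limits of the central 95% of measured probe sets in each of 10 signal bins. Of the subunit genes, Ndufs4 lies above and Ndufb1 and Ndufv2 below these limits.

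**Figure D4:**
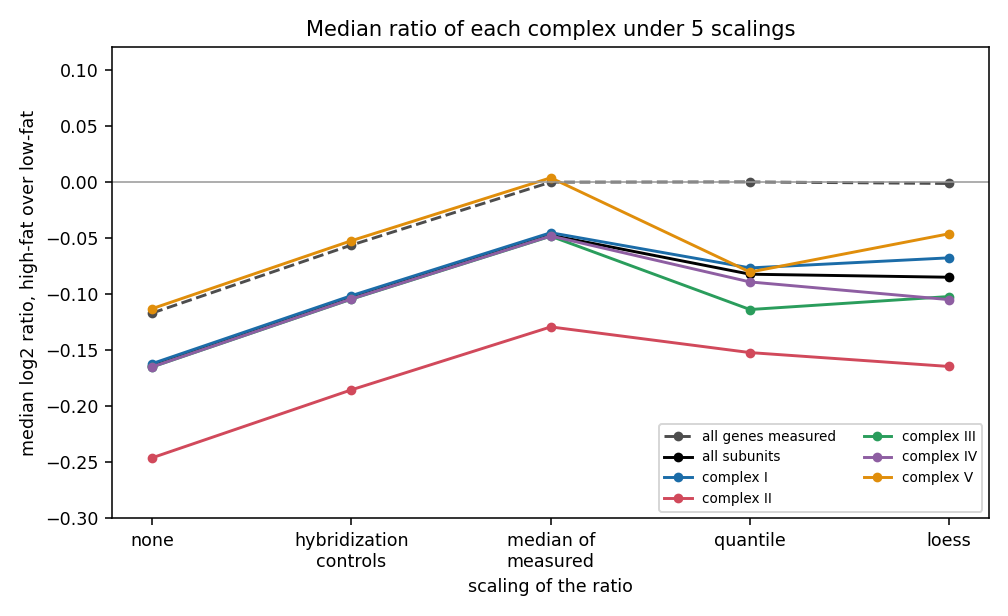
Median log2 ratio of the measured genes of each complex, of all subunit genes and of all genes measured (dashed) under 5 scalings. Complex II is the lowest under each, from -0.25 without centring to -0.13 after centring on measured probe sets, and complex V alone is above 0, at 0.0037, under 1 of them.

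The mitochondrially encoded subunits, partners of the nuclear ones, had 2 genes with a probe set here. COX1, the catalytic subunit of complex IV, went from 4093.3 to 3276.9 (-0.20) and COX2, which receives electrons from cytochrome c, from 4518.1 to 4344.3 (0.060, below 0 without centring, with quantile normalization and after loess). Of 36 measured assembly factors, 18 were lower and 18 higher, with a median of -0.0099. Without centring 31 of them were lower (86.1%, against 66.6% of all genes). Among the Ndufaf genes, which build complex I, 4 were lower and Ndufaf5 was higher, from 26.2 to 33.7 (0.48), the highest of the assembly factors. Ndufaf4 went from 51.1 to 35.6 (-0.40). Atpaf1, which assembles F1, had the lowest ratio of those above both floors, from 89.8 to 60.0 (-0.47).

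Citric acid cycle genes, whose enzymes make NADH for the chain, came next. Of 11 measured citric acid cycle genes outside complex II, 9 were lower and 2 higher, with a median of -0.16. Under each other scaling 10 of these 11 (90.9%) were lower, against 49.8% to 66.6% of all genes. Ogdh, of the 2-oxoglutarate dehydrogenase complex, was the lowest, from 124.9 to 85.7 (-0.43), and Dld, the subunit it shares with pyruvate dehydrogenase, the highest, from 113.3 to 115.8 (0.15). A list of 12 measured electron and substrate carriers mixes electron donors, the complex III subunit Cyc1, uncoupling protein and carriers of the inner and outer membranes. Of these 9 were lower and 3 higher, with a median of -0.10. Dhodh, which gives electrons from pyrimidine synthesis to ubiquinone, was at -0.73 with signals of 26.2 and 14.6, close to the floor. Etfdh, which gives it electrons from fatty acid oxidation, was the highest, from 388.1 to 413.7 (0.21). The difference of these lists from the subunit genes was not tested.

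Of 21 listed regulators of mitochondrial biogenesis, 12 had a probe set of a single symbol and 8 were measured. Nrf1 and Gabpa were not among the 12, and Ppargc1a, the gene of PGC-1alpha, was below both floors at 5.9 and 0.5. Of the 8 measured, 5 were lower (62.5%, against 50% of all genes measured) and 3 higher, with a median of -0.066. Polrmt, the mitochondrial RNA polymerase, was the lowest, from 72.6 to 45.5 (-0.56). Polg, the mitochondrial DNA polymerase, was the highest, from 75.7 to 81.9 (0.23), and its second probe set was at -0.39. Mitochondrial ribosomal protein genes were 33 lower and 38 higher of 71, with a median of 0.028, from Mrpl38 at -0.88 to Mrps15 at 0.55. Without centring 49 of them were lower (69.0%, near the 66.6% of all genes) and 22 higher. Cytosolic ribosomal protein genes, bright like the subunits, were 25 lower and 17 higher of 42, with a median of -0.033. After loess 31 of the 42 were lower (73.8%, against 50.2% of all genes). Centred ratios of the cytosolic ribosomal genes ran from Rpl39 at -0.62 to Rpl37a at 1.67, and related gene copies make ribosomal probe sets uncertain.

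**Figure D5:**
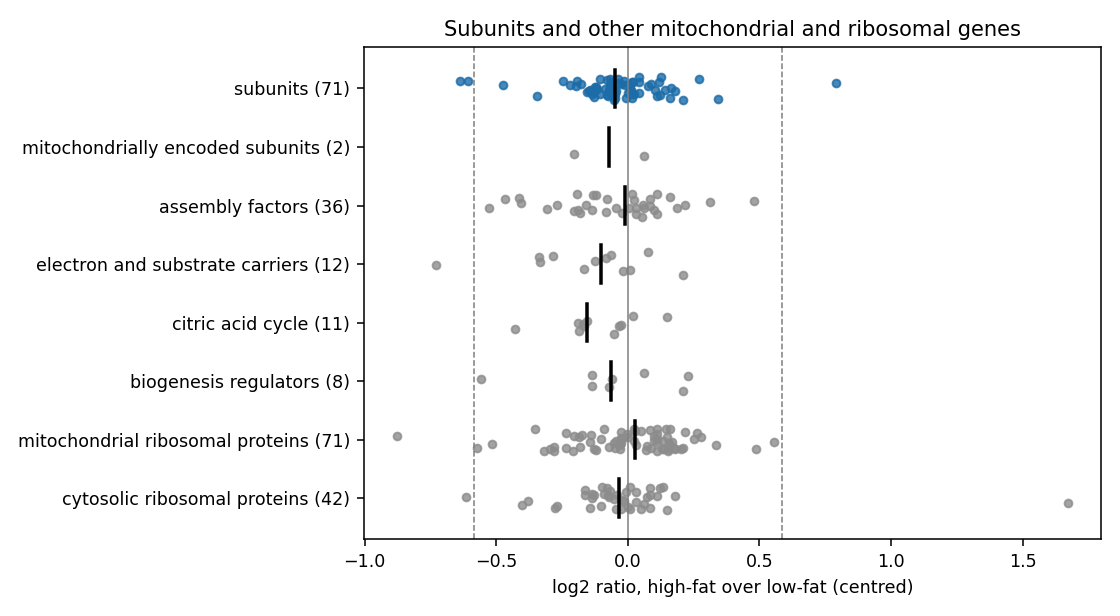
Centred log2 ratio of each measured subunit gene (blue) and of the measured genes of 7 other lists (grey), with the number of genes in brackets, the median of each list as a black bar and dashed lines at 1.5-fold. Medians run from -0.16 for the citric acid cycle to 0.028 for mitochondrial ribosomal proteins.

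Markers of liver cell types were read beside the subunit values. All 9 measured hepatocyte markers were higher after centring, against 50% of all genes measured and 719 of 1261 in the 2 brightest bins. Their median was 0.14, with summed signals of 39118.7 (low-fat) and 39542.9 (high-fat). Of the 9, 7 were higher with hybridization control centring, 5 without centring and 4 after loess. Of all 6012 genes measured, 2511, 1996 and 2995 were higher in the same order. With quantile normalization 3 were higher, 2 lower and 4 at 0, against 2980 of 6012 genes higher. Of 7 stellate cell and fibroblast markers 4 were measured. All 4 were lower, against 50% of all genes measured, with a median of -0.43. The summed signal of the 7 was 402.4 and 294.6. The lowest of the 4, Col1a2 (29.9 and 13.2), was below the high-fat floor, so its ratio of -1.06 is a bound. Lrat, at 21.1 and 16.0, was close to the floor. Of 5 Kupffer cell markers 3 were lower, with summed signals of 948.2 and 808.0. Without centring 4 of the 5 were lower, as were 66.6% of all genes. Both measured endothelial markers of 4 on the array were lower, with summed signals of 304.6 and 259.4. The part of cell makeup in the subunit ratios was not tested.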

How the data were processed

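The deposited values are linear signal intensities, 1 for each probe set on each array. How the authors made these intensities is not given in the sources used here, and the scale was read from the values. Of 15923 probe sets, 57 controls were left out, and 12783 of the other 15866 had a single symbol. Another 7 probe sets carry a subunit symbol beside another symbol and were kept apart. After removal of 4 probe sets with a 0, signals were put on the log2 scale. From each log2 ratio the median over 7864 measured probe sets was subtracted, and the probe set with the highest mean signal stood for a gene. A fold of 1.5 was used for counts. Members and lists were chosen with earlier results of these data known. Named were the 3 highest and 3 lowest genes of each complex, those past 1.5-fold, all of complex II, those with several probe sets, catalytic and core subunits, tissue isoforms of complex IV, and the extremes of each other list. Further genes were picked with their values in view. Alternatives were other scalings, floors, a pseudocount, probe set rules and a fold of 2. Centring on 18 hybridization controls was an alternative chosen after seeing the data. Motifs were searched in RefSeq's promoter table. The steps were tested on simulated data. Python 3.11.15, numpy 2.4.6, pandas 2.3.3, statsmodels 0.14.6 and matplotlib 3.10.9 were used.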

Additional observations from a re-analysis of the deposited data

Results flagged for a closer look

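Another 7 probe sets carry several symbols, 1 of them a subunit symbol, and entered no count of genes. All 7 were measured, with ratios from -0.40 to 0.26 and a median of -0.0442. For 1 of them the deposited high-fat signal exceeded the low-fat signal, at 504.3 against 457.7.

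The probe set of Cox5a was left out of the counts because its mean signal was below the floor. Its signal of 15 on the high-fat array was above that array's floor of 14.0, and its signal of 10.3 on the low-fat array was below the floor of 15.7.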

How the results depend on the processing

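Without centring, 11 subunit genes were higher, 13 complex V genes were lower, and the medians were -0.164 over all subunit genes, -0.162, -0.246, -0.165 and -0.165 in complexes I to IV and -0.113 in complex V. This scaling moved the median of all genes to -0.117. The other scalings left each median within 0.1 of its value, but those of complex V were below 0. The number of higher subunit genes was 16 with quantile normalization, 18 after loess and 15 with hybridization control centring, an alternative chosen after seeing the data, and 12, 13 and 13 complex V genes were lower. With a pseudocount of 50, 15 subunit genes were higher, 13 complex V genes lower, 1 gene was past 1.5-fold lower and 0 higher. Past 1.5-fold higher were 2 genes with the floor at the 25th percentile, where fewer genes were left out, and 0 with the floor at the 75th. At a fold of 2 the counts were 0 lower and 0 higher. Of 40 named subunit genes measured, 32 kept their sign under each setting run and 8 did not, namely Atp5f1d, Atp5f1e, Atp5mc3, Cox4i1 (at 0.0 with quantile normalization), Cox7c, Uqcr11, Uqcrc1 and Uqcrc2. Counting the Ndufaf genes with complex I, taking the median over probe sets or leaving out probe sets named _s_at and _x_at kept each count within 1.5 times. No paired analysis was possible because each diet had 1 array. The spread widens as signals fall, and the probe sets of Ndufs4 and Atp5if1 lie in signal bins with robust SDs of 0.31 and 0.34, against 0.17 in the brightest.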
